A study of Rattus norvegicus with 12 samples.

Results

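The genes described here are the MHC class I genes of the RT1 complex, the major histocompatibility complex of the rat, in the colon of 12 male Wistar rats. All probes were taken whose gene name starts with RT1 and a hyphen or full stop, except the class II names that start with RT1-B, RT1-D or RT1-H. This gave 43 probes with 35 gene names, of 30367 probes on the array. By the names and descriptions in the files, 4 of these probes measure class Ia genes (RT1-A1, RT1-A2 and Rt1.aa), and the others measure the class Ib and further class I loci RT1-CE, RT1-Cl, RT1-EC, RT1-N, RT1-S, RT1-T and RT1-M.

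Class I heavy chains pair with beta-2 microglobulin and carry peptides from inside the cell to its surface, where CD8 T cells and NK cells read them. Class Ia molecules are made by nearly every nucleated cell and differ strongly between individuals, while class Ib molecules are less variable and some are made in few tissues. The number and sequence of class I genes differ between rat haplotypes, and the letter at the end of RT1.Aa names a haplotype. Wistar rats are an outbred stock, so that animals of 1 study may carry different haplotypes.

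The study asked how neonatal maternal separation (NMS), a model of early-life stress that makes the gut oversensitive, and the probiotic mixture VSL#3 alter colonic gene expression. The 4 rats of Group C (C1 to C4) were handled normally and received placebo, 100 µL of saline by gavage from day 3 to day 60. The 4 rats of Group M (M5 to M8) underwent NMS for 180 min a day from day 2 to day 14 and received placebo. The 4 rats of Group D (D9 to D12) had the same NMS and were given VSL#3 in place of placebo over the same days, at a dose on which labels and methods differ. All rats weighed 200 to 250 g, underwent colorectal distension (CRD) and were killed on day 60. The litter and dam of each rat are not given in the sources used here, so p values cover the spread between these rats and nothing about litters. The methods analysed 11 arrays, without rat D12. Fits below use these 11, and the values of D12 are given beside them.

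Each rat had 1 array, and each value is the log2 signal of a probe after subtraction of its array's 75th percentile on the log2 scale. The level of a probe cannot be set against that of another probe. The 75th percentile of the 12 arrays lay between 1434 and 1953 units of intensity, 75.5% to 77.5% of the spots were well above background and 0 spots were saturated. Groups C and M shared 1 slide and 1 scan, with Group C in row 1 of the slide and Group M in row 2. Row and group thus cannot be told apart in the comparison of Groups C and M. Group D had a slide and scan of its own, so slide and treatment cannot be told apart in its comparisons. All 7 markers of colon epithelium and all 4 of smooth muscle were well above background on all 12 arrays.

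The sequences show how alike the class I probes are. Each probe has 60 bases. That of Rt1.aa, the class Ia chain with the largest difference between Group M and Group C, is printed first. The next 4 are the probes of RT1-A1, RT1-CE16, RT1-CE4 and RT1-CE11, and capitals mark the bases that differ from the Rt1.aa probe where they overlap it.
Rt1.aa: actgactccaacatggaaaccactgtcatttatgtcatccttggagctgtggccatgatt
RT1-CE16: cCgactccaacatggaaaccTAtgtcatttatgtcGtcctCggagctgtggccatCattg
RT1-A1: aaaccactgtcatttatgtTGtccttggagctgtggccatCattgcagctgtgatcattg
RT1-CE4: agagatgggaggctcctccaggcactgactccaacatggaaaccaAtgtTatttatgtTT
RT1-CE11: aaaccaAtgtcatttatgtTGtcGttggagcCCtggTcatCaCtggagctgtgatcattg

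These stretches code for the part of the heavy chain where it enters the membrane. The RT1-CE16 probe matched the Rt1.aa probe at 53 of 59 overlapping bases, that of RT1-A1 at 41 of 44, that of RT1-CE4 at 33 of 37 and that of RT1-CE11 at 35 of 44. Counted from 1 at the 5′ end of the Rt1.aa probe, RT1-A1 differed from it at C36T, A37G and G57C. Of the other 42 probes, 7 overlapped the Rt1.aa probe by at least 25 bases at 75% identity or more. By the transcripts that the files list for each probe, 8 of the 43 probes match transcripts of more than 1 RefSeq gene. A signal may therefore hold RNA of a near-identical class I gene, and a probe may miss RNA of an allele that differs from it.

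The files place 38 of the 43 probes on chromosome 20 of the rn4 build, 6 of them on sequence not ordered along it. The RT1-A1 probe printed above lies at chr20:5059134-5059193, the RT1-A2 probe at chr20:5024199-5024258 and the RT1-CE2 probe A_44_P107372, placed on a stretch longer than its 60 bases, at chr20:3577411-3577564. The files give no position for 5 probes, those of Rt1.aa, RT1-EC2, RT1-Cl, RT1-CE6 and RT1-M2. RefSeq accessions of 34 of the 43 probes matched the RefSeq gene table (GRCr8), which does not hold the accession of Rt1.aa.

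Promoters are shown because class I loci share 2 regulatory motifs, enhancer A and the interferon-stimulated response element, through which NF-kappa-B and interferon-regulated factors act. For 26 of the 35 gene names RefSeq gave a window of 250 bases before and 50 after the start. The windows of RT1-A1 (GRCr8, chr20:4906959-4907258, plus strand) and RT1-CE16 (GRCr8, chr20:3265394-3265693, minus strand) follow, with the letters GGGATTCCC and TTTCACTT in capitals.
RT1-A1: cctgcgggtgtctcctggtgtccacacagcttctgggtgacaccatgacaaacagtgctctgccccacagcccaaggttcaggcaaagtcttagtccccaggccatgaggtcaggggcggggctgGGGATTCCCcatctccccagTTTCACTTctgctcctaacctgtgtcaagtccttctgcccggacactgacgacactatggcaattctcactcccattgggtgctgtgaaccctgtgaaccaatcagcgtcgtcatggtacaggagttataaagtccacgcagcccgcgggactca
RT1-CE16: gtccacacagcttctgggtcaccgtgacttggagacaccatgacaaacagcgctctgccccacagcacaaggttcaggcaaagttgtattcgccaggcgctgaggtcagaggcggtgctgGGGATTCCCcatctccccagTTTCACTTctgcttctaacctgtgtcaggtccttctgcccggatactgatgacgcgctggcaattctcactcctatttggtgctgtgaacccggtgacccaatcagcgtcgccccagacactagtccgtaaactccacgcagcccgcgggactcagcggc

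Searched on both strands, GGGATTCCC stood in 7 of the 26 windows and in 0.365% of 33469 windows of all genes. TTTCACTT stood in 12 of the 26 and in 1.73% of all. The 6 class I genes whose windows held both were RT1-A1, RT1-A2, RT1-CE10, RT1-CE11, RT1-CE13 and RT1-CE16, of 9 windows among all genes. A match is a description of letters and shows no binding.

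Of the 43 class I probes, 34 were well above background on all 12 arrays. The 6 that were on no array measure RT1-M1-2, RT1-M1-4, RT1-M10-1, RT1-M4, RT1-M5 and, by 1 of its probes, RT1-M6-1, loci of the RT1-M region. The other 3 were measured on some arrays, RT1-CE6 on 11, an RT1-T18 probe (A_64_P102801) on 6 and RT1-T24-2 on 1. The second RT1-M6-1 probe (A_64_P003255) was far above background in every rat, with values of 2.97 to 3.93, but the files list for it a transcript of RT1-A3 too.

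In Group M, which had undergone NMS, the signal of class Ia and of several RT1-C/E probes was higher than in Group C. The median log2 difference of the 34 measured class I probes was 0.35, beside -0.02 for the 20305 probes of the array measured in the same way. Of the 34 differences 23 were above 0, beside 46.9% of those 20305 probes. The 4 class Ia probes had a median difference of 0.80, the 16 measured probes of the RT1-C/E loci 0.54, the 11 of RT1-N, RT1-S and RT1-T 0.26 and the 3 of RT1-M -0.06. The 8 class II RT1 probes measured in the same way had a median of 0.55, from 0.18 to 1.81. By limma 0 of the 43 probes passed the adjusted test (adjusted p at most 0.05 and 2-fold), beside 0.165% of all probes, and the lowest adjusted p was 0.0836. With p at most 0.05 and unadjusted, 14 were higher and 2 lower, together 16 of 43 beside 22.7% of all probes. By the methods' criterion, which takes analysis of variance followed by Tukey's comparison of groups, unadjusted over probes, at 0.05 and 2-fold, 5 passed, all higher in Group M, beside 2.31% of all probes. The 5 were Rt1.aa, RT1-CE16, RT1-EC2, RT1-CE6 and RT1-CE5 (A_64_P090474). The counts depended on single rats: without M6 the adjusted test called 6 class I probes and without D9 it called 2, while the methods' criterion called 3 without C1, C3, M5 or M8.

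**Figure D1:**
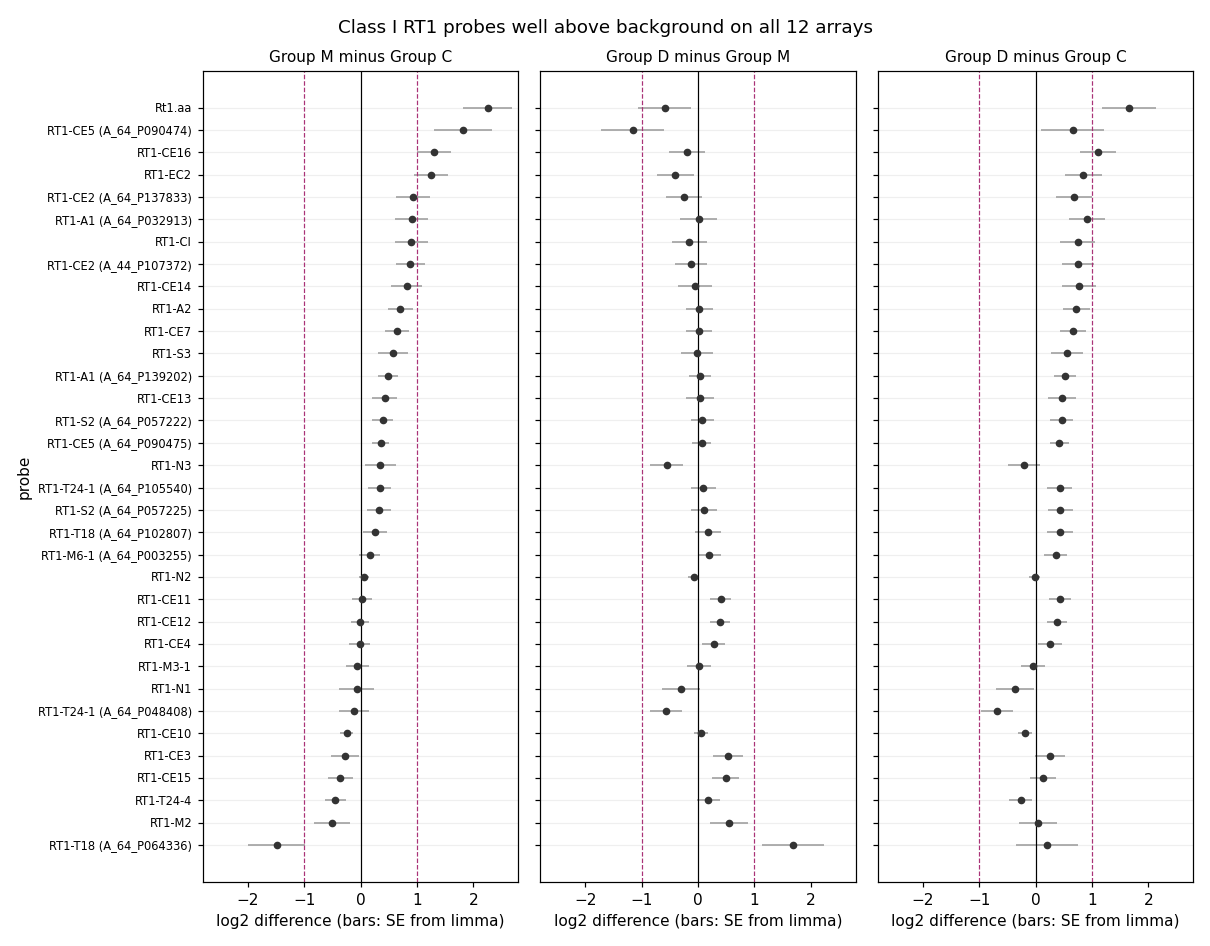
Log2 difference of each of the 34 class I RT1 probes measured on all 12 arrays in the 3 comparisons (11 arrays, D12 left out), with the standard error from limma as bars and a 2-fold change as dashed lines. In Group M minus Group C 4 probes lie beyond 2-fold upwards and 1 (RT1-T18, A_64_P064336) downwards, while most lie near 0 in Group D minus Group M.

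Rt1.aa had the largest difference of all class I probes. Its values in Group C were 0.83 in C1, 0.80 in C2, 1.14 in C3 and 1.05 in C4. M5 had 3.06, M6 3.23, M7 2.84 and M8 3.70, and in Group D 1.13 in D9, 3.49 in D10, 3.22 in D11 and 1.01 in D12. Groups C and M did not overlap, and Group D was divided: D10 and D11 were at the level of Group M, D9 and D12 at that of Group C. Group C had a mean of 0.96 ± 0.16 (SD, n = 4) and Group M one of 3.21 ± 0.37 (SD, n = 4), a 4.76-fold difference (log2 2.25, SE 0.44, limma adjusted p = 0.0836). In Group D, without D12, the mean was 2.61 ± 1.29 (SD, n = 3), and this SD is larger than the range of either other group. For this and every other probe the fit takes 1 estimate of spread over the 3 groups. The division of Group D thus enters the SE and p of Group M against Group C.

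RT1-CE16, a class I gene of the C/E region, followed the same order with a smaller distance. Its values were 1.34, 1.46, 1.60 and 1.55 in C1 to C4, and 2.72, 2.87, 2.43 and 3.15 in M5 to M8. In Group D they were 1.63 in D9, 3.14 in D10, 3.00 in D11 and 1.75 in D12. D9 and D12 lay just above Group C, and D10 and D11 within the range of Group M. The difference between Group M and Group C was 2.47-fold (log2 1.31, SE 0.30, limma adjusted p = 0.0932).

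RT1-EC2, a class Ib gene, had -0.17, 0.15, 0.20 and 0.45 in C1 to C4 and 1.36, 1.40, 0.98 and 1.90 in M5 to M8. In Group D it had 0.14 in D9, 1.57 in D10, 1.29 in D11 and 0.47 in D12. Here too D10 and D11 stood with Group M and D9 within Group C, and D12 was near the highest rat of Group C. Group M exceeded Group C by 2.39-fold (log2 1.25, SE 0.30, limma adjusted p = 0.0981).

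The class Ia genes RT1-A1 and RT1-A2 encode classical molecules that present peptides to CD8 T cells. The RT1-A1 probe printed above had 2.84, 2.42, 2.97 and 3.00 in C1 to C4, 3.53, 3.90, 3.29 and 4.13 in M5 to M8, and 2.88, 4.21, 4.08 and 2.56 in D9 to D12. The second RT1-A1 probe (A_64_P139202) had 4.69, 4.51, 4.78 and 4.66 in Group C, 5.10, 5.26, 4.81 and 5.42 in Group M, and 4.72, 5.53, 5.31 and 4.55 in Group D. Both probes of this gene gave the same order of groups, with the whole of Group M above Group C and Group D divided as for Rt1.aa. RT1-A2 had 2.45, 2.66, 2.76 and 2.57 in Group C, 3.24, 3.42, 2.99 and 3.60 in Group M, and 2.68, 3.77, 3.55 and 2.97 in Group D. For RT1-A2 the neighbours M7 and D12 were closer to each other than the spread between the rats of a group. The log2 differences between Group M and Group C were 0.91 (SE 0.30) and 0.49 (SE 0.18) for RT1-A1 and 0.70 (SE 0.22) for RT1-A2, with limma adjusted p values of 0.131, 0.161 and 0.126.

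**Figure D2:**
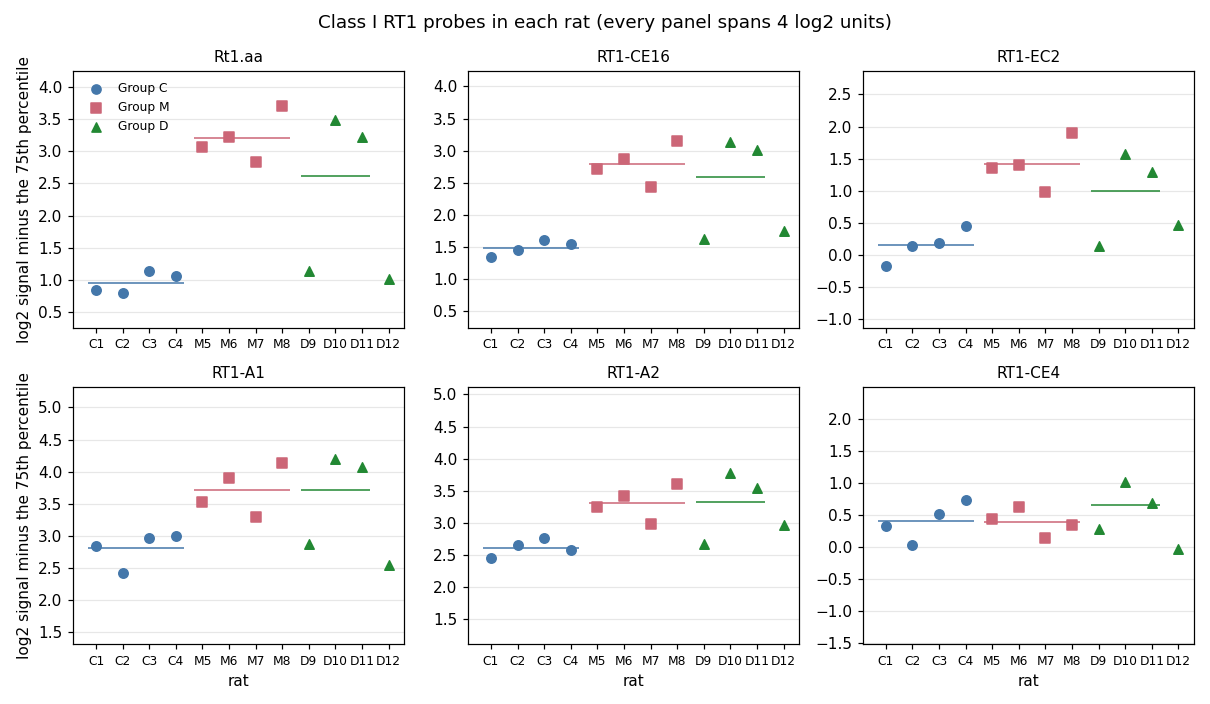
Log2 signal minus the 75th percentile of the array for 6 class I RT1 probes in each of the 12 rats, with the group means as lines (D12 left out of the mean of Group D) and every panel spanning 4 log2 units. For Rt1.aa, M5 to M8, D10 and D11 lie between 2.84 and 3.70 and the other 6 rats between 0.80 and 1.14, while RT1-CE4 has no such division.

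Over all 43 probes, the lowest rat of Group M exceeded the highest of Group C for 11, beside 4.18% of all probes, and below for 1, RT1-CE10, beside 5.04% of all probes. The 11 were Rt1.aa, both RT1-A1 probes, RT1-A2, RT1-CE16, RT1-EC2, RT1-Cl, RT1-CE14, RT1-CE7 and both RT1-CE2 probes. RT1-CE2 (A_64_P137833, which also lists a transcript of RT1-A3) had 0.91, 0.36, 1.14 and 1.0 in Group C, 1.63, 1.82, 1.35 and 2.31 in Group M, and 0.79, 2.08, 1.72 and 0.20 in Group D. RT1-CE14 had 1.73, 1.44, 1.94 and 1.96 in Group C, 2.52, 2.89, 2.11 and 2.82 in Group M, and 1.75, 2.96, 2.89 and 1.52 in Group D. In both, D9 and D12 were at or below the level of Group C and D10 and D11 at that of Group M. The RT1-CE2 probes had log2 differences between Group M and Group C of 0.93 (A_64_P137833) and 0.88 (A_44_P107372), RT1-Cl 0.90, RT1-CE14 0.82 and RT1-CE7 0.65. RT1-CE10 had -0.96, -0.84, -0.72 and -0.94 in Group C, -1.05, -1.21, -1.23 and -0.96 in Group M, and -0.84, -1.05, -1.29 and -0.40 in Group D. Its log2 difference between Group M and Group C was -0.25 (SE 0.12, limma adjusted p = 0.246), and M8 and C1 were nearly equal. Not all C/E loci differed in this way. RT1-CE4, whose probe shares 33 of 37 bases with that of Rt1.aa, had a log2 difference of -0.02 (SE 0.19), and RT1-CE11 0.03 (SE 0.18). The RT1-CE4 probe also lists a transcript of RT1-CE15.

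The same 11 probes also placed all of M5, M6, M7, M8, D10 and D11 above all of the other 6 rats, and RT1-CE10 placed them below. Over the whole array, 26 of 30348 probes with a value in every rat did the former and 15 the latter. Of the 26, 11 were class I RT1 probes, 2 were class II RT1 probes and 3 further ones lay on chromosome 20, those of Btnl8, LOC683761 and Tap2. The set M5 to M8, D10 and D11 was read from the values of Rt1.aa, so Rt1.aa meets this order by construction. The rats so divided are not groups of the study, and no test was made between them.

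For each probe the rats were put in order of value, and the largest step between neighbours was taken. The class I gene with the largest step was Rt1.aa, with 1.70 log2 units between M7 and C3, and no other class I probe had a step of 1 or more, beside 2150 of the 30348 probes of the array. None of the class I probes was all-or-none, defined as a step of at least 2 with signal well above background in some rats only (0 of 43). Over the whole array 8 probes had their largest step between the same rats as Rt1.aa. Of these, 4 were class I (Rt1.aa, RT1-CE16, RT1-EC2 and RT1-CE2, A_44_P107372), 2 were class II (RT1-Bb and RT1-Ba) and 2 were Btnl8 and LOC683761, both on chromosome 20.

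The class II gene RT1-Bb, by its probe A_44_P552452 (rn4, chr20:4730533-4730583), had the largest of these steps, 7.76. It had -8.39, -8.78, -8.89 and -7.99 in Group C, 3.47, 1.66, 2.84 and 4.02 in Group M, and -6.11, 1.89, 1.93 and -8.20 in D9 to D12. The probe was well above background in 0 of 4 rats of Group C, in 4 of 4 of Group M and in 3 of 4 of Group D, D9 among them. Its signal in Group M was thus at least 1745-fold higher than that in Group C (limma adjusted p = 0.0292), a bound set by the lowest signal well above background. With all 12 arrays in the fit the call was lost (limma adjusted p = 0.0958). The second RT1-Bb probe (A_64_P043911) had 2.00, 3.15, 2.02 and 2.45 in Group C, 3.35, 1.63, 2.61 and 2.74 in Group M, and 1.71, 1.85, 1.86 and 3.89 in Group D. The probes of this 1 gene thus disagreed: the second had signal in all rats and did not divide them in that way. Btnl8, a butyrophilin-like gene (A_64_P076460, rn4, chr20:4415069-4415128), had -6.44, -7.22, -6.38 and -6.41 in Group C, -0.60, -0.20, -1.60 and 0.03 in Group M, and -7.97, -0.43, -0.51 and -8.96 in Group D. The files hold no genotype, and whether the division of the rats follows inherited RT1 haplotypes was not tested.

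**Figure D3:**
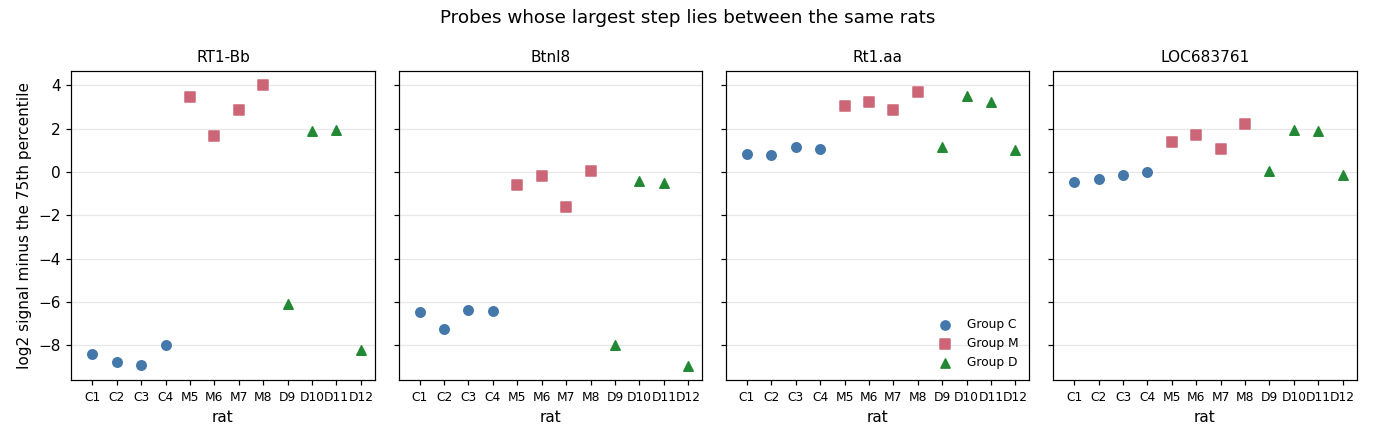
Log2 signal minus the 75th percentile of the array, in each of the 12 rats, for Rt1.aa and 3 of the other probes whose largest step lies between the same rats (RT1-Bb, Btnl8 and LOC683761). In every panel M5 to M8, D10 and D11 lie above C1 to C4, D9 and D12, with steps of 7.76 for RT1-Bb, 4.78 for Btnl8 and 1.70 for Rt1.aa.

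The other class I probes past the methods' criterion were those of RT1-CE5 and RT1-CE6. RT1-CE5, by its probe A_64_P090474, had -4.63, -2.95, -4.29 and -4.29 in Group C, -1.71, -3.58, -2.11 and -1.49 in Group M, and -3.98, -3.54, -2.64 and -1.75 in Group D. M6 was below C2, so Groups C and M overlapped, and the difference was 3.53-fold (log2 1.82, SE 0.51, limma adjusted p = 0.111). The second RT1-CE5 probe (A_64_P090475), which also lists transcripts of RT1-CE12 and RT1-CE7, had a log2 difference of 0.36 (SE 0.16). RT1-CE6, annotated as a non-coding RNA, had -5.68, -5.03, -6.02 and -6.47 in Group C, -4.77, -5.07, -4.90 and -4.41 in Group M, and -5.28, -4.72, -5.30 and -4.63 in Group D. M6 lay just below C2, and the difference was 2.02-fold (log2 1.01, SE 0.29, limma adjusted p = 0.111).

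Some probes of the class Ib genes of the RT1-N and RT1-T loci gave other orders of the rats. RT1-T18 (A_64_P064336) had -3.53, -4.62, -3.93 and -2.81 in Group C, -4.86, -4.11, -6.21 and -5.66 in Group M, and -4.25, -3.34, -2.98 and -5.71 in Group D. Groups C and M overlapped, and D12 was near the low rats of Group M. Its log2 difference was -1.49 (SE 0.51, limma adjusted p = 0.139) between Group M and Group C and 1.69 (SE 0.55, limma adjusted p = 0.135) between Group D and Group M. Another RT1-T18 probe (A_64_P102807) had 0.26 (SE 0.22) between Group M and Group C, so the probes of this gene differed in sign. This other probe had 2.16, 1.89, 2.11 and 2.37 in Group C, 2.33, 2.61, 1.96 and 2.65 in Group M, and 2.02, 2.94, 2.73 and 2.07 in Group D. M6, M8, D10 and D11 were its highest rats.

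RT1-N1 had -2.44, -1.67, -2.52 and -2.70 in Group C, -1.76, -3.0, -2.57 and -2.27 in Group M, and -2.23, -3.15, -2.72 and -1.17 in Group D. RT1-N3 had -2.20, -1.40, -2.16 and -2.20 in Group C, -1.05, -2.27, -1.74 and -1.51 in Group M, and -1.98, -2.49, -2.12 and -0.80 in Group D. For both RT1-N1 and RT1-N3, C2, M5 and D12 were the highest rats of their groups, and all groups overlapped. The only RefSeq gene among the transcripts listed for the RT1-N1 probe is RT1-N2. RT1-T24-4 had 0.54, 0.80, 0.65 and 0.84 in Group C, 0.43, -0.21, 0.22 and 0.60 in Group M, and 0.84, 0.28, 0.21 and 1.39 in Group D. M8 was above C1, so Groups C and M overlapped (log2 difference -0.45, SE 0.19). RT1-T24-1 (A_64_P048408) had -3.17, -2.46, -2.60 and -3.38 in Group C, -2.92, -2.37, -3.27 and -3.50 in Group M, and -3.55, -3.59, -3.62 and -2.83 in Group D. D9, D10 and D11 lay below all rats of the other groups and D12 did not, and the transcripts listed for this probe are those of RT1-T24-4 and RT1-T24-3. The second RT1-T24-1 probe (A_64_P105540) had 1.01, 0.84, 1.23 and 1.25 in Group C, 1.27, 1.61, 0.97 and 1.84 in Group M, and 1.19, 1.83, 1.52 and 1.05 in Group D. M6, M8, D10 and D11 were the highest rats for this second probe. Between Group D and Group C the probes differed in sign, with log2 differences of -0.69 (SE 0.28) and 0.43 (SE 0.22).

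**Figure D4:**
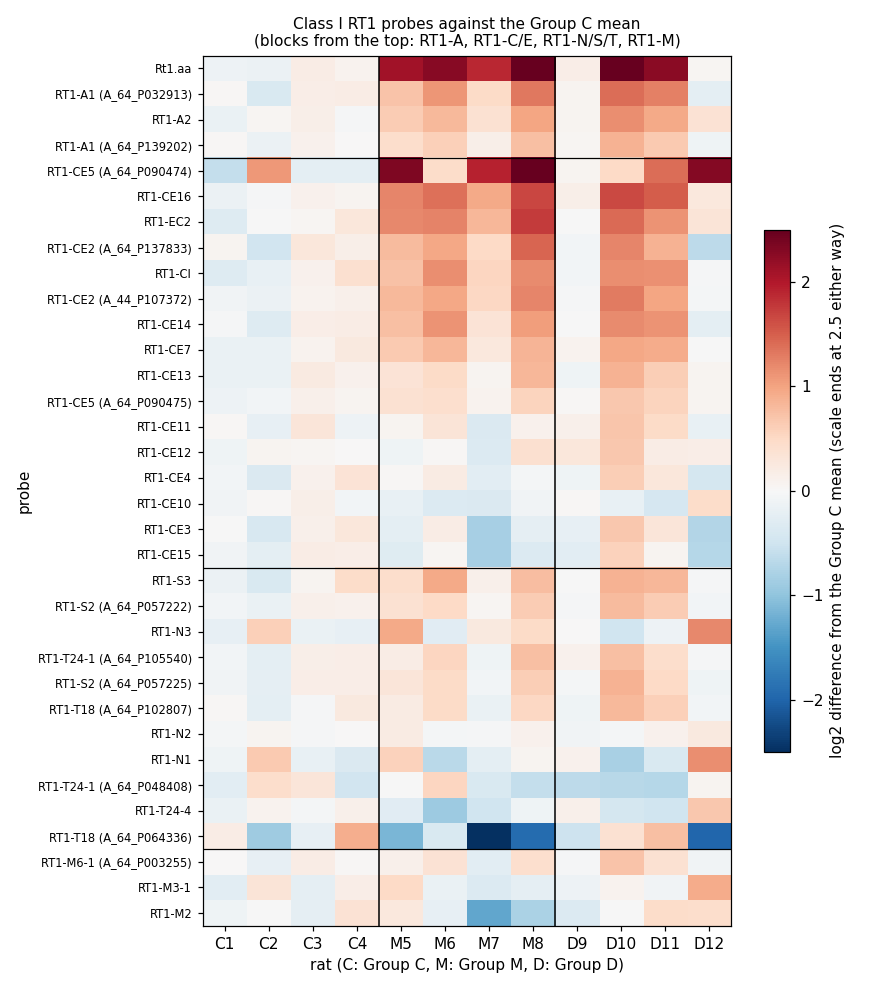
Log2 signal of the 34 measured class I RT1 probes in each of the 12 rats, minus the mean of Group C, with probes in rows by locus and red for higher and blue for lower signal. The RT1-A rows and the RT1-C/E rows from RT1-CE16 to RT1-CE7 are red in M5 to M8, D10 and D11, while RT1-CE5 (A_64_P090474) is also red in C2 and D12.

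The question of Group D against Group M is whether VSL#3 altered class I expression in rats that had undergone NMS. The median log2 difference of the 34 probes was 0.03, beside 0.01 for all probes measured. The 8 class II RT1 probes measured in the same way differed from them here, with a median of -0.88, from -1.93 to -0.46. By limma 0 of 43 class I probes passed, beside 0.128% of all probes, and by the methods' criterion 0, beside 2.66%. With p at most 0.05 and unadjusted, 3 were higher in Group D and 0 lower, beside 21.6% of all probes. Of these 3, RT1-M10-1 was well above background on no array, and the others were RT1-T18 (A_64_P064336) and RT1-CE12, with a log2 difference of 0.39 for the latter. Rt1.aa had a log2 difference of -0.60 (SE 0.47, limma adjusted p = 0.506), which turned to 0.15 without D9 and was -1.03 without D10. RT1-A1 (A_64_P032913) had 0.01 (SE 0.32), which was 0.43 without D9 and -0.28 with all 12 arrays. Both had D9 low and D10 and D11 high. Without M6 the adjusted test called 2 probes, RT1-CE5 and RT1-T18, and the methods' criterion 2, and without D9 the methods' criterion called 1.

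Some C/E loci with log2 differences near or below 0 between Group M and Group C had their highest value in D10. RT1-CE11 had -0.51, -0.74, -0.24 and -0.67 in Group C, -0.47, -0.21, -0.90 and -0.44 in Group M, and -0.41, 0.15, -0.06 and -0.72 in Group D. RT1-CE15 had -1.94, -2.10, -1.67 and -1.69 in Group C, -2.16, -1.81, -2.67 and -2.19 in Group M, and -2.11, -1.26, -1.79 and -2.57 in Group D. In both, D12 was below the other rats of its group and all groups overlapped. RT1-CE3 had -0.00, -0.41, 0.14 and 0.28 in Group C, -0.24, 0.19, -0.83 and -0.22 in Group M, and -0.20, 0.67, 0.31 and -0.73 in Group D. The class Ib gene RT1-M2 had -4.42, -4.33, -4.55 and -3.96 in Group C, -4.04, -4.51, -5.61 and -5.11 in Group M, and -4.65, -4.31, -3.85 and -3.87 in Group D. For both, the groups overlapped. The log2 differences between Group D and Group M were 0.40 (SE 0.19) for RT1-CE11, 0.49 (SE 0.24) for RT1-CE15, 0.53 (SE 0.27) for RT1-CE3 and 0.55 (SE 0.34) for RT1-M2.

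Group D against Group C compares rats with NMS and VSL#3 to rats with neither. The median log2 difference of the 34 class I probes was 0.43, beside -0.01 for all probes measured. The 8 class II RT1 probes had a median of -0.30, from -0.60 to 0.15. In D12, which is outside the fit, the median of these class II probes against the Group C mean was 1.55. By limma 0 of 43 passed, beside 0.00659% of all probes, and the lowest adjusted p was 0.651. At an unadjusted p of at most 0.05, 15 were higher and 1 lower, 16 of 43 beside 5.97% of all probes, and 1 of the 15, RT1-M5, was well above background on no array. This number depended on leaving out D12. With all 12 arrays 5 were higher and 0 lower at that unadjusted limma p, and the median log2 difference was 0.32. The share of all probes in that fit is not given here. By the methods' criterion 2 passed, Rt1.aa (3.15-fold) and RT1-CE16 (2.15-fold), beside 0.369% of all probes. This comparison shares Group C with the first and Group D with the second. The count was 0 with D12 included, 9 without D9, 1 without M5, and 0 without any 1 rat of Group C, M6, D10 or D11. The adjusted test called 2 without D9.

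The class I pathway was read from 43 genes on the array that serve peptide supply, loading, transcription, class I-like molecules and receptors. By limma 0 of the 43 passed in any comparison. Unadjusted, 7 were higher and 6 lower in Group M than in Group C, beside 22.7% of all probes, and by the methods' criterion 1 passed, beside 2.31%. B2m, the light chain of every class I molecule, had 4.63, 4.66, 4.53 and 4.74 in Group C, 4.63, 4.59, 4.51 and 4.65 in Group M, and 4.66, 4.83, 4.62 and 4.63 in Group D. Its log2 difference between Group M and Group C was -0.04 (SE 0.09, limma adjusted p = 0.821), and the groups overlapped.

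Tap1 and Tap2 form the transporter that brings peptides to class I molecules, and their genes lie in the RT1 complex. Tap2 had 0.88, 1.11, 0.73 and 1.22 in Group C, 1.97, 1.70, 1.64 and 2.43 in Group M, and 1.17, 1.80, 1.77 and 1.50 in Group D. Groups C and M did not overlap for Tap2 (log2 difference 0.95, SE 0.21, limma adjusted p = 0.0908), and D10 and D11 were above D9 and D12. Tap1 had -3.51, -2.71, -2.81 and -2.91 in Group C, -2.27, -2.71, -2.47 and -2.19 in Group M, and -3.16, -2.82, -2.63 and -2.25 in Group D. M6 and C2 were nearly equal for Tap1 (log2 difference 0.58, SE 0.20), and D12 was at the level of Group M. Tapbp, which holds class I molecules at the transporter, had a log2 difference of -0.19 (SE 0.14) between Group M and Group C.

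The 6 pathway genes lower in Group M at an unadjusted p of at most 0.05 were Tapbpl, Erap1, Irf2, Rfxank, Fcgrt and Hfe. Erap1, which trims peptides for class I molecules, had 1.62, 1.60, 1.75 and 1.61 in Group C, 1.31, 1.16, 1.21 and 1.49 in Group M, and 1.44, 1.66, 1.60 and 1.51 in Group D. Group M lay wholly below Group C for Erap1 (log2 difference -0.35, SE 0.10, limma adjusted p = 0.110). Tapbpl, a relative of Tapbp that edits bound peptides, had -3.56, -3.44, -3.12 and -3.37 in Group C, -4.77, -3.18, -5.16 and -4.95 in Group M, and -3.62, -3.46, -3.35 and -3.11 in Group D. M6 stood among Group C for Tapbpl and the other rats of Group M below it (log2 difference -1.14, SE 0.36, limma adjusted p = 0.126). Irf2, a transcription factor of the interferon response, had -0.60 (SE 0.17), with Group M wholly below Group C. Erap1, Tapbpl and Irf2 were chosen after their values were seen.

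Psmb8 and Psmb9 are subunits of the immunoproteasome, which cuts proteins into peptides. Psmb9 had 0.25, 0.85, 0.53 and 0.53 in Group C, 1.76, 0.76, 1.15 and 1.76 in Group M, and 0.48, 0.89, 0.80 and 1.51 in Group D. M6 was below C2, and the log2 difference was 0.82 (SE 0.23, limma adjusted p = 0.112). Psmb8 had 0.65 (SE 0.35), with M6 among the low rats. Procr, a class I-like receptor of protein C, was the gene past the methods' criterion, with -2.98, -2.46, -2.87 and -2.85 in Group C, -1.75, -2.31, -0.47 and -1.25 in Group M, and -2.61, -2.89, -3.19 and -0.94 in Group D. Groups C and M did not overlap, and D12 stood apart from the other rats of Group D. Its log2 difference was 1.35 (SE 0.33, limma adjusted p = 0.0996) between Group M and Group C and -1.45 (SE 0.36, limma adjusted p = 0.0929) between Group D and Group M.

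Markers of lymphocytes differed between rats of 1 group, and in whole colon fewer cells of a type and less RNA per cell cannot be told apart. The 7 markers of T and NK cells, all measured on all 12 arrays, had mean log2 values against Group C of -0.53, 1.40, -0.59 and -0.28 in C1 to C4, 1.52, -0.53, 1.20 and 1.04 in M5 to M8, and -0.60, 0.12, -0.10 and 1.97 in D9 to D12. The 4 markers of B cells on the array, 2 of them measured on all 12 arrays, had -1.76, 3.55, -1.16 and -0.64 in Group C, 4.37, -1.61, 3.40 and 3.79 in Group M, and -2.64, 0.23, -0.48 and 4.81 in Group D. C2, M5, M7, M8 and D12 were thus high for both lists. By limma 0 genes of either list passed in any comparison. Rt1.aa and the markers were both high in M5, M7 and M8 and both low in C1, C3, C4 and D9. Rt1.aa was low in C2 and D12, which were high for the markers, and high in M6, which was low for them. In D10 and D11 Rt1.aa was high, at 3.49 and 3.22, while their T and NK marker levels were 0.12 and -0.10. RT1-CE5 (A_64_P090474) was highest in M8, M5, D12 and M7, all of them high for these markers, and RT1-N3 in D12, M5, C2 and M8. Markers of other cells also moved between Group M and Group C. The mean of the 3 mast cell markers lay between -0.28 and 0.59 in Group C and between 0.52 and 0.91 in Group M. At an unadjusted p of at most 0.05, 2 of the 3 were higher in Group M and 1 was lower, beside 22.7% of all probes in either direction. By the methods' criterion 2 passed, Cpa3 and Cma1, beside 2.31% of all probes. The mean of the 3 neutrophil markers, 2 of them measured on all 12 arrays, lay between -0.46 and 0.74 in Group C and between -0.11 and 3.09 in Group M. Of the 5 markers of macrophages and monocytes 3 were higher in Group M at an unadjusted p of at most 0.05, beside 22.7% of all probes in either direction. The mean of the 5 lay between -0.25 and 0.28 in Group C and between -0.03 and 0.39 in Group M. By limma 0 genes of these 3 lists passed. The part of any of these cells in the values of Rt1.aa, RT1-CE5, RT1-N3 or the other class I probes was not tested.

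**Figure D5:**
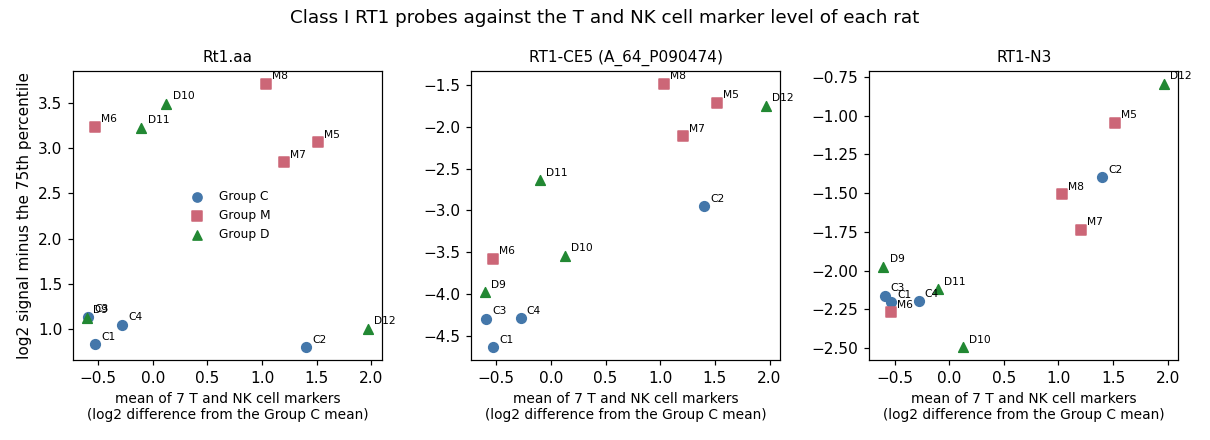
Log2 signal of class I RT1 probes in each of the 12 rats against the mean log2 level of the 7 markers of T and NK cells relative to Group C. The panels show Rt1.aa, RT1-CE5 (A_64_P090474) and RT1-N3, and Rt1.aa is at 3.06 in M5, which has a marker level of 1.52, at 0.80 in C2 and 1.01 in D12, which have marker levels of 1.40 and 1.97, and at 3.23 in M6, which has -0.53.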

How the data were processed

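Colon RNA of 12 rats was labelled with Cy3 and hybridised to 1-colour whole rat genome arrays, 1 array a rat. Per the file headers, the authors extracted spot intensity with Agilent Feature Extraction 10.5.1.1, which subtracted background and removed trends within each array. The deposited series matrix holds log2 values of the same arrays and served as an alternative. The Rosetta Resolver analysis named in the methods was not repeated.

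Here log2 of the processed intensity was taken minus the log2 75th percentile of each array, after control spots and outlier flags had been left out, and spots of a probe were averaged. Different probes of a gene were kept apart. Some value was missing for 19 of 30367 probes. Groups came from the labels. Following the methods, 11 arrays entered the fit, without D12, for whose omission no reason is given in the sources used here. limma 3.58.1 in R 4.3.3 was fitted to all probes and groups, with Benjamini-Hochberg adjustment over all probes (adjusted p at most 0.05 and 2-fold). The methods' criterion took analysis of variance, then Tukey's comparison of groups, at 0.05 unadjusted over probes and 2-fold. Figures used Python 3.11.15 and matplotlib 3.10.9. The scripts were tested on simulated data. The number of arrays limits the precision.

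Values in every rat are given for class I probes past either criterion, for the 5 with the largest and the 5 with the smallest log2 difference in each comparison among those measured on all 12 arrays, and for RT1-A probes. They are also given for pathway genes past either criterion, for B2m, Tap1, Tap2 and Psmb9, and for Erap1 and Tapbpl. For Tapbp and Psmb8 the difference is given without the value of each rat. Nlrc5, listed among the genes of transcription, had no probe by that name. Gene members and lists were chosen with earlier results of these data known. Alternatives were all 12 arrays, normexp background correction (offset 50), quantile normalization, a median shift, the deposited log2 matrix, outlier spots kept, a filter on dim probes, the replicate number as a block, and leaving out each rat.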

Additional observations from a re-analysis of the deposited data

Results flagged for a closer look

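In 60 groups of 4 rats (20 class I probes in 3 groups), 2 had a rat far from the other 3 by Dixon's criterion, which chance alone meets in about 1 of 20 groups. RT1-N3 was -1.40 in C2 of Group C, while the other rats of that group lay between -2.20 and -2.16. RT1-T24-1 (A_64_P048408) was -2.83 in D12 of Group D, while the other rats lay between -3.62 and -3.55.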

How the results depend on the processing

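With normexp background correction 1 class I probe, Rt1.aa, passed the adjusted test between Group M and Group C (limma adjusted p = 0.0458). Between Group D and Group M the methods' criterion called 1 class I probe under quantile normalization, 1 under the median shift and 1 with the deposited matrix. With all 12 arrays it called 0 between Group D and Group C. Leaving out 1 rat gave 0 to 6 probes past the adjusted test, 3 to 7 past the methods' criterion and a median of 0.26 to 0.46 between Group M and Group C, with 6 without M6 and 2 without D9. It gave 0 to 2, 0 to 2 and from -0.095 to 0.28 between Group D and Group M, and 0 to 2, 0 to 9 and 0.27 to 0.65 between Group D and Group C, with the highest counts without M6 and without D9. The log2 difference of Rt1.aa between Group M and Group C ranged from 2.09 to 2.37 over the alternatives (limma adjusted p from 0.00297 to 0.230). Of 1140 values of single probes under an alternative, 44 changed sign (27 of them between Group D and Group M, 8 in Group M against Group C and 9 in Group D against Group C) and 13 newly passed the threshold. With all 12 arrays the log2 difference between Group D and Group M became -0.28 for RT1-A1 (A_64_P032913), -0.12 for RT1-A1 (A_64_P139202), -0.073 for RT1-A2 and 0.078 for RT1-N1, and that between Group D and Group C became -0.084 for RT1-CE15, -0.34 for RT1-T18, 0.14 for RT1-N3 and 0.013 for RT1-N1. Between Group D and Group M it became -0.014 for RT1-A2 with normexp, and for RT1-CE14 0.033 with the median shift and 0.019 with the replicate block. Between Group M and Group C it became -0.0070 for RT1-CE11 with the median shift. When 1 rat was left out, the difference between Group M and Group C ran from -0.064 to 0.17 for RT1-CE11, from -0.33 to 0.047 for RT1-T24-1 (A_64_P048408) and from -0.28 to 0.15 for RT1-N1. Between Group D and Group M it ran from -1.03 to 0.15 for Rt1.aa, from -0.47 to 0.28 for RT1-CE16, from -0.70 to 0.021 for RT1-EC2, from -0.52 to 0.12 for RT1-CE2 (A_64_P137833), from -0.018 to 0.30 for RT1-T24-4, from -0.23 to 0.43 and from -0.13 to 0.27 for the RT1-A1 probes, from -0.20 to 0.35 for RT1-A2, from -0.26 to 0.34 for RT1-CE14 and from -0.057 to 0.17 for RT1-CE10. The ends for Rt1.aa, RT1-CE16, RT1-EC2, RT1-CE2, RT1-A1, RT1-A2 and RT1-CE14 were reached without D10 and without D9. Between Group D and Group C it ran from -0.10 to 0.32 for RT1-CE15, from -0.17 to 0.23 for RT1-M2 and from -0.097 to 0.57 for RT1-T18. With the replicate block 0 class I probes passed in any comparison, with medians of 0.35, 0.09 and 0.51 and lowest limma adjusted p values of 0.228, 0.260 and 0.947. Same-numbered rats correlated between -0.72 and 0.58, and whether the numbers pair the rats in any way is not known. The methods' criterion was not run with the block. Over all probes the adjusted test called 50 between Group M and Group C, against 10 with all 12 arrays, 75 with normexp, 28 with the deposited matrix, 77 with the filter on dim probes and 1 with the block. The 6 class I probes that were well above background on no array have no measured level on either side, whatever their p.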
